A study of Mus musculus with 6 samples.

Results

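Ifi202b, Ifi203 and Ifi204 belong to the p200 family of interferon-inducible genes, and their proteins are known chiefly as brakes on cell growth. The annotation of the array platform named 8949 genes and mapped 7 of the 12488 probe sets to these 3, namely 2 to Ifi202b, 1 to Ifi203 and 4 to Ifi204. All 7 were taken, whatever their signal. A probe set is a small group of short probes for 1 transcript. Its signal is a linear intensity computed by MAS5, the array maker's summary method. Of the 7, 4 passed a filter on dim signals and entered the test across the whole array, and 3 did not.

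The RNA came from NIH3T3, an immortalised mouse fibroblast line, in a clone that titles of the first replicate call 35/1-22. On every one of the 6 arrays the cells carried c-myc and Ha-ras under a Tet-off promoter, which doxycycline silences, and made IRF-1hER without interruption, a fusion of the interferon-response factor IRF-1 to a hormone-binding domain that estradiol activates. The doxycycline group (2 arrays) received 2 µg/ml doxycycline, so its cells held the oncogenes off. The withdrawal group (2 arrays) had no doxycycline and no estradiol, and the estradiol group (2 arrays) had no doxycycline and was given 1 mM estradiol for 48 h. The cells were 1 clone in medium with serum, so nothing here separates a property of the clone from one of the line. For doxycycline replicate 2 the labels conflict. Its title names estradiol beside doxycycline, but only doxycycline appears in its treatment field, so it is called the array labelled doxycycline replicate 2 below. RNA was extracted with RNeasy for replicate 1 and TRIZOL for replicate 2 in every group. Nothing in the labels says that the 2 replicates were separate cultures, so p-values measure only how these arrays spread, and that spread may be technical.

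The p200 proteins share a repeat of a DNA-binding domain, called HIN, and most also carry a pyrin domain through which they join other proteins. p202, the product of Ifi202b, lacks the pyrin domain and is known to bind transcription factors such as E2F, NF-kappaB, AP-1 and p53-binding protein and to dampen their activity. p204, the product of Ifi204, is known to bind the retinoblastoma protein and the ribosomal RNA transcription factor UBF, and to take part in muscle differentiation by releasing MyoD from Id proteins. p203, the product of Ifi203, is less well described. The genes lie side by side as a block of recent duplicates, and interferon switches many of them on through the IRF and STAT factors that bind their promoters.

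In the RefSeq annotation of mouse chromosome 1 the family stands in the order Aim2, Ifi206, Ifi214, Ifi213, Ifi209, Ifi208, Ifi207, Ifi204, Ifi203-ps, Mndal, Ifi211, Ifi203, Ifi202b and Ifi205. Aim2 encodes the cytosolic DNA sensor of an inflammasome. Promoter windows from RefSeq (build GRCm38.p6), running from 250 bases before to 50 bases after an annotated start, were matched for 12 of these genes with 14 windows, Ifi202b and Ifi203 among them. No window was matched for the member Ifi204 or for Ifi203-ps. The windows were searched on both strands for the core of the IRF element, spelled GAAANNGAAA, for the STAT-binding GAS element, spelled TTCNNNGAA, and for the E-box CACGTG, the site of Myc and Max. The 4 windows below are shown because they give the family's shared IRF element and the window of the member Ifi202b, which, like those of Aim2 and Ifi209, lacks it. They are those of Ifi202b (chr1:173982795-173983094, minus strand), Ifi203 (chr1:173942443-173942742, minus strand), Ifi207 (chr1:173741760-173742059, minus strand) and Mndal (chr1:173880138-173880437, minus strand). Capitals mark the IRF core in Ifi203, Ifi207 and Mndal, and the GAS element in Ifi202b.
Ifi202b: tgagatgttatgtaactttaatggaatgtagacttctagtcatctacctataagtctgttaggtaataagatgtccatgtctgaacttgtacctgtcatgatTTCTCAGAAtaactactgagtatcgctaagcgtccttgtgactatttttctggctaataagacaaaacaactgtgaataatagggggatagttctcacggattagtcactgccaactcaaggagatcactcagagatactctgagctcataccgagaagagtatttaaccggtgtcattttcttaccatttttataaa
Ifi203: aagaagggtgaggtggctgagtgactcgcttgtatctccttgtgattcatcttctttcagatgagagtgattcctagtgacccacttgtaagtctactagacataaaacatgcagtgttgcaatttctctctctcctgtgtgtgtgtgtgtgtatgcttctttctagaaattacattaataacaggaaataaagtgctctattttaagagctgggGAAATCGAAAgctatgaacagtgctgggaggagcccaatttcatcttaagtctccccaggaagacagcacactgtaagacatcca
Ifi207: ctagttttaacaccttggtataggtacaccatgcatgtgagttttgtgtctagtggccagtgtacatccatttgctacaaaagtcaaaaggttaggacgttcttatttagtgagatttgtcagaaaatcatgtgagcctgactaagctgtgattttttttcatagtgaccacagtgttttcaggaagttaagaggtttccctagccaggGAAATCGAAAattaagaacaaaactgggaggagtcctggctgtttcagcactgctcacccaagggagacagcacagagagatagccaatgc
Mndal: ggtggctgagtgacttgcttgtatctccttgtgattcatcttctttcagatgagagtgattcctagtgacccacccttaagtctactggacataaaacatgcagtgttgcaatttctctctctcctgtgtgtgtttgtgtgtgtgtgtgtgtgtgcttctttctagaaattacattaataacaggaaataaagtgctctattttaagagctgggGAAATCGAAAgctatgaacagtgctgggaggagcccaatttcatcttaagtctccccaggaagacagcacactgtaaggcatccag

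The Ifi203 window shown held the IRF core as GAAATCGAAA at -35 to -26 from its start, which is counted as position 0. The same 10 letters stood at -41 to -32 in Ifi207 and at -36 to -27 in Mndal. Ifi203 and Mndal shared an identical run of 139 bases in these windows, against 12 bases for Ifi203 and Ifi207 and 9 bases for Ifi202b and Ifi203. The Ifi202b window had no IRF core on either strand, and carried TTCTCAGAA at -148 to -140, the only GAS match in the 14 windows. A second annotated start of Ifi203 (chr1:173942623-173942922, minus strand) had none of the 3 motifs.

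Over the 12 family genes with a window, which leave out Ifi204, 10 of the 14 windows (71.4%) held an IRF core. Of all promoter windows of the genome, 1131 of 32851 (3.44%) did. A GAS element was in 1 of 14 (7.14%) against 8.3% of all windows, and an E-box in 0 of 14 against 7.15%. The exact letters GAAATCGAAA were in 7 of 14 p200 windows and in 16 of the 32851. These shares describe letters of the reference genome, and the sequence carried by the NIH3T3 cells was not read. The duplicated genes are not independent of each other, and a window without a match says nothing of the factor.

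**Figure D1:**
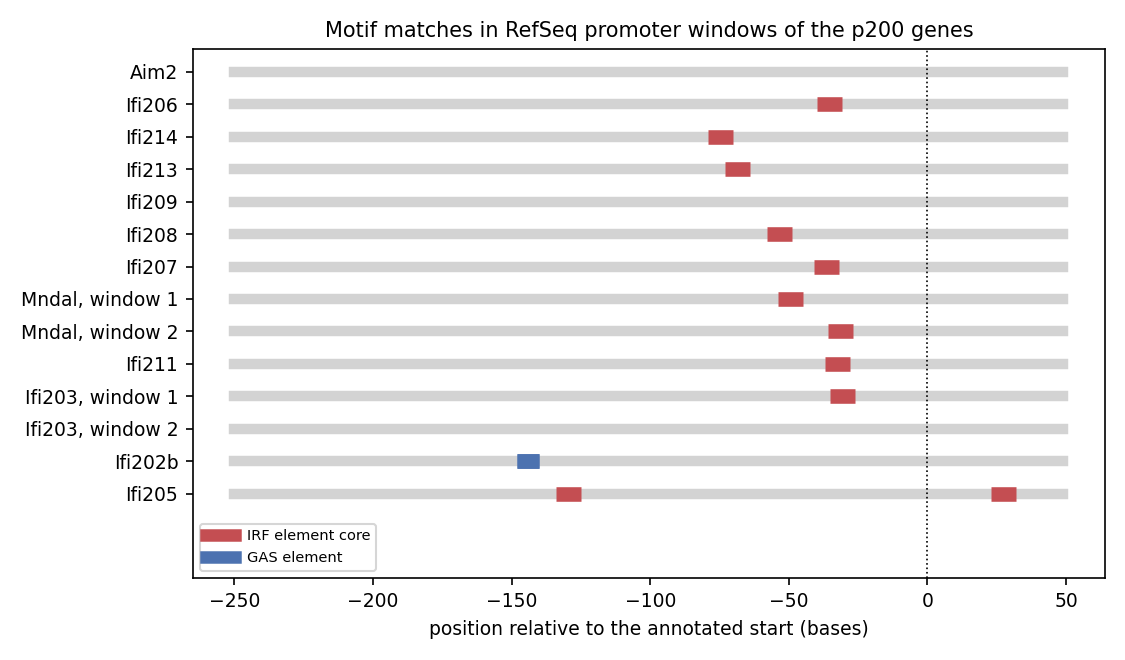
Motif matches in the 14 RefSeq promoter windows of 12 p200 genes, in chromosome order, by position in bases from the annotated start at 0. Grey bars are the windows, red marks an IRF element core and blue a GAS element; 10 windows hold an IRF core, and the Ifi202b window holds the only GAS element.

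Ifi202b was read by 94774_at, a probe set annotated to it alone. Its signal was 256 and 1681 on the doxycycline arrays, 392 and 249 on the withdrawal arrays, and 391 and 323 on the estradiol arrays (replicates 1 and 2 in this order throughout). The array labelled doxycycline replicate 2 stood apart, 6.56-fold above the other doxycycline array and 4.29-fold above the highest of the other 5. Those other 5 arrays lay within 1.57-fold of each other, and doxycycline replicate 1 lay among the withdrawal and estradiol values, so the doxycycline and withdrawal groups overlapped. Within the 5, the lowest signals were those of doxycycline replicate 1 and withdrawal replicate 2.

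The other Ifi202b probe set, 161173_f_at, is also annotated to LOC100044068, and its suffix marks probes shared by a sequence family. Its signal was 26.4 and 128 with doxycycline, 30.6 and 29.2 on the withdrawal arrays, and 31.9 and 23.8 with estradiol. The same array was high, 4.02-fold above the highest of the rest, and the groups overlapped again. This probe set passed the filter on dim signals only through that array, since its mean log2 signal was 6.15 with it and 5.91 without it, below the filter.

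Ifi204 was read by 98465_f_at, which gave 302 and 2200 with doxycycline, 442 and 254 on the withdrawal arrays, and 459 and 218 with estradiol. It is annotated to Ifi204 alone, but its suffix also marks probes shared by a sequence family. Its signal may therefore include relatives of Ifi204, here and below. The array labelled doxycycline replicate 2 was 7.28-fold above the other doxycycline array and 4.79-fold above the highest of the other 5, which spanned 2.1-fold. The groups overlapped. Withdrawal replicate 1 and estradiol replicate 1 were nearly the same, and were the higher arrays of their groups.

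A further probe set, 94224_s_at, is annotated to Mndal, Ifi211, Ifi205 and Ifi204, all genes of the block, so its signal cannot be credited to 1 of them. It gave 364 and 3262 with doxycycline, 342 and 321 on the withdrawal arrays, and 347 and 191 with estradiol. The array labelled doxycycline replicate 2 was 8.96-fold above the highest of the other 5, which spanned 1.9-fold. Here doxycycline replicate 1 was also the highest of those 5, if by little, and the doxycycline group lay wholly above the other groups.

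The remaining 3 probe sets were dim. Those for Ifi204 whose suffix marks probes chosen under relaxed rules gave 10.4, 28.5, 16.1, 14.7, 19.4 and 14.1 (98466_r_at) and 12.8, 15.9, 21.1, 16.8, 22.3 and 5 (161180_r_at), in the order doxycycline, withdrawal, estradiol. The first was highest on the array labelled doxycycline replicate 2, 1.47-fold above the next, and the other was not. Ifi203 had no probe set of its own. The one annotated to it together with Ifi203-ps and LOC100862473, 93321_at, gave 1.1 to 2.5 on the 6 arrays, with 1.7 on the array labelled doxycycline replicate 2. Such values are at the floor of the array, so the level of Ifi203 is unknown here on every array.

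**Figure D2:**
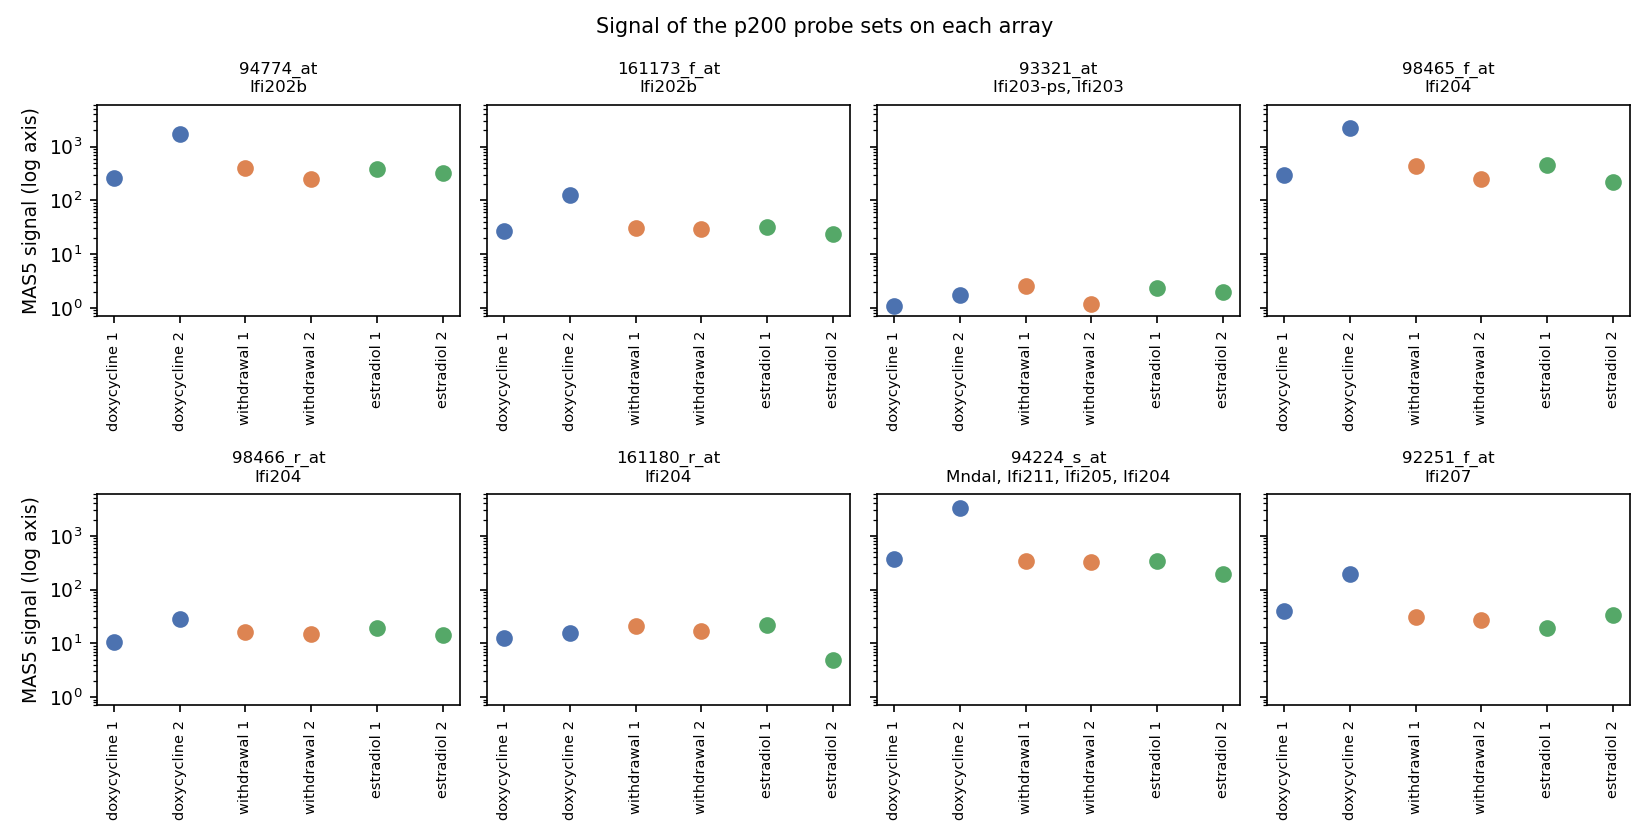
MAS5 signal (log axis) of the 7 probe sets annotated to Ifi202b, Ifi203 and Ifi204, and of 92251_f_at for the relative Ifi207, on each of the 6 arrays; each point is 1 array, coloured by group, and LOC identifiers are left out of the panel titles. The array labelled doxycycline replicate 2 is highest in 94774_at (1681), 161173_f_at (128), 98465_f_at (2200), 98466_r_at (28.5), 94224_s_at (3262) and 92251_f_at (193), and not in 93321_at or 161180_r_at.

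On the scale of log2(signal + 32), used from here on, all 4 tested probe sets on the array labelled doxycycline replicate 2 exceeded the highest of the other 5 arrays by at least 1 (2-fold). The amounts were 2.02 for Ifi202b by 94774_at, 1.33 for 161173_f_at, 2.18 for Ifi204 by 98465_f_at and 3.06 for 94224_s_at. Over the array, 92 of 7453 tested probe sets (1.23%) did so on that array. The p200 probe sets ranked 36, 70, 32 and 16 among the 7453. Among probe sets that also pass the filter without that array, 3 of 3 p200 probe sets and 73 of 7358 (0.992%) did so. On each other array 0 of the 4 did so, against 0.148% of all tested probe sets on doxycycline replicate 1, 0% on withdrawal replicate 1, 0.255% on withdrawal replicate 2, 0.0134% on estradiol replicate 1 and 0.148% on estradiol replicate 2. This count was chosen after the signals had been seen and is a description without a test. The other TRIZOL arrays, withdrawal replicate 2 and estradiol replicate 2, gave Ifi202b signals of 249 and 323 by 94774_at. Whether the extraction method bears on the excess was not tested.

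**Figure D3:**
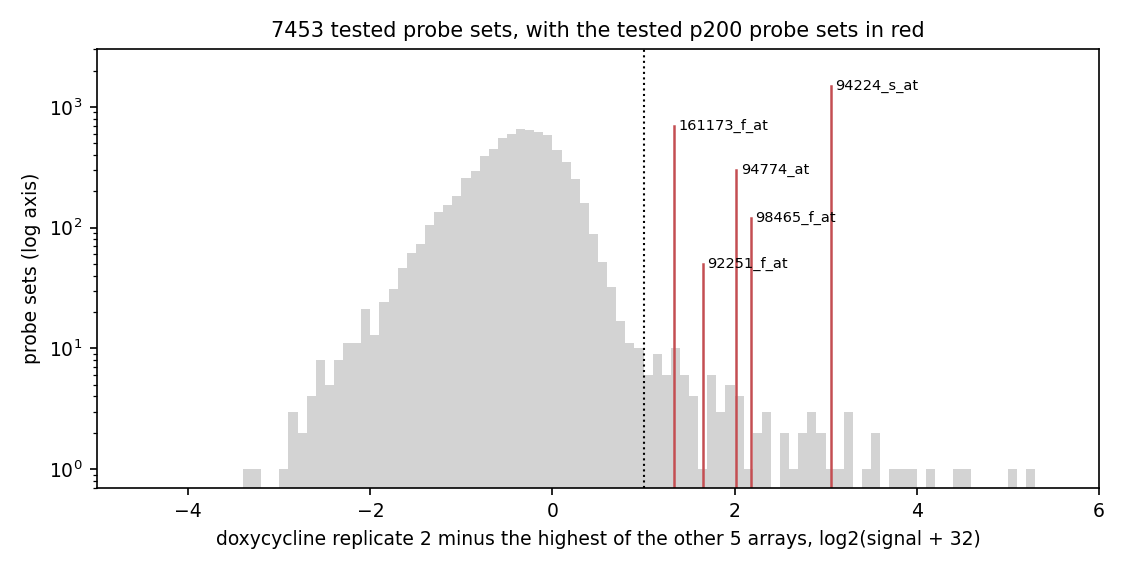
Number of tested probe sets (log axis, grey, 7453 in all) by the difference between the array labelled doxycycline replicate 2 and the highest of the other 5 arrays, in log2(signal + 32). Red lines, whose heights carry no meaning, mark the 4 tested probe sets of Ifi202b and Ifi204 and 92251_f_at of Ifi207, at 1.33 to 3.06; the dotted line is at 1, which 92 probe sets reach.

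Withdrawal was compared with doxycycline first, which asks what switching the oncogenes on changes, although doxycycline itself also differs. By its title, the array labelled doxycycline replicate 2 may also have had estradiol, so activity of the IRF-1 fusion may differ too. The p200 probe sets had lower means after withdrawal in 4 of 4, with a median difference of -1.13 against 0.01 for all tested probe sets, and none passed the test. The 4 include 161173_f_at, which passed the filter only through the array labelled doxycycline replicate 2. A lower mean was therefore favoured for it in advance. With a threshold of 0.05 on the adjusted p, limma called 0 of the 4 and 0 of 7453 (0%). Before adjustment, 0 of the 4 and 326 of all had a p under 0.05. Ifi202b by 94774_at differed by -1.03 (SE 0.70, 95% interval -2.64 to 0.58, limma adjusted p = 0.935). Replicate 1 alone gave 0.56, higher after withdrawal, and replicate 2 alone -2.61.

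Ifi204 by 98465_f_at differed by -1.23 (SE 0.78, 95% interval -3.02 to 0.56, limma adjusted p = 0.935). Replicate 1 gave 0.50 and replicate 2 gave -2.96. The probe set 161173_f_at gave -0.64 (SE 0.43), again with opposite signs in the replicates (0.10 and -1.39). The widest difference was that of 94224_s_at, at -1.65 (SE 0.82, 95% interval -3.53 to 0.22, limma adjusted p = 0.925). It was the 1 of the 4 whose groups did not overlap, as was so, in the lower direction, for 15% of all tested probe sets. Its replicates gave -0.08 and -3.22.

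These differences rest on a single array. Without the array labelled doxycycline replicate 2 they were 0.26 for 94774_at, 0.08 for 161173_f_at, 0.14 for 98465_f_at and -0.12 for 94224_s_at. The first 3 of these turned sign. Without doxycycline replicate 1, which leaves the high array as the lone member of its group, they were -2.31, -1.37, -2.60 and -3.18, and 94224_s_at passed the test (limma adjusted p = 0.0336, with 0.349% of all probe sets called). In that fit the lone array is assumed to vary like the other groups.

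Estradiol was then compared with withdrawal, which asks what activation of the IRF-1 fusion changes while the oncogenes are on. None of the p200 probe sets passed the test. The differences were 0.17 for Ifi202b by 94774_at (SE 0.70, 95% interval -1.44 to 1.78), -0.05 for 161173_f_at, -0.07 for Ifi204 by 98465_f_at (SE 0.78, 95% interval -1.86 to 1.72) and -0.32 for 94224_s_at. Their median was -0.06 against 0.01 for all tested probe sets, 1 was higher and 3 lower, and the groups of all 4 overlapped. Limma called 0 of the 4 and 0 of all 7453 (0%), and before adjustment 0 and 52 had a p under 0.05.

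The 3 groups share an estimate of spread that includes the doxycycline pair. The intervals reach beyond 2-fold in both directions for 94774_at, 98465_f_at and 94224_s_at, so a rise or a fall of that size lies within them. In replicate 1 the arrays of this comparison differed by 0.00 to 0.05 across the 4 probe sets. Those 2 arrays were the most alike of any pair, at least 2-fold apart in 16 of 7453 probe sets, against 920 for the 2 withdrawal arrays.

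Estradiol against doxycycline used the same doxycycline arrays as the first comparison, so the values stand side by side and are not separate evidence. The label conflict of the array labelled doxycycline replicate 2 applies here too. Means were lower with estradiol in 4 of 4, with a median of -1.08 against 0.00 for all tested probe sets, and 0 of the 4 passed, as did 0 of 7453 (0%). Here too the 4 include 161173_f_at, for which a lower mean was favoured by the filter. Before adjustment, 1 of the 4 and 1041 of all had a p under 0.05. Ifi202b by 94774_at differed by -0.86 (SE 0.70, limma adjusted p = 0.618) and Ifi204 by 98465_f_at by -1.30 (SE 0.78, limma adjusted p = 0.479). The largest was 94224_s_at at -1.97 (SE 0.82, 95% interval -3.85 to -0.10, limma adjusted p = 0.344), the 1 of the 4 without overlap of the groups, as in 24.7% of all tested probe sets. With the array labelled doxycycline replicate 2 left out the values were 0.43, 0.03 for 161173_f_at, 0.07 and -0.44. Without doxycycline replicate 1 they were -2.14, -1.42, -2.67 and -3.50, and 94224_s_at passed (limma adjusted p = 0.0168, with 0.376% of all probe sets called).

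**Figure D4:**
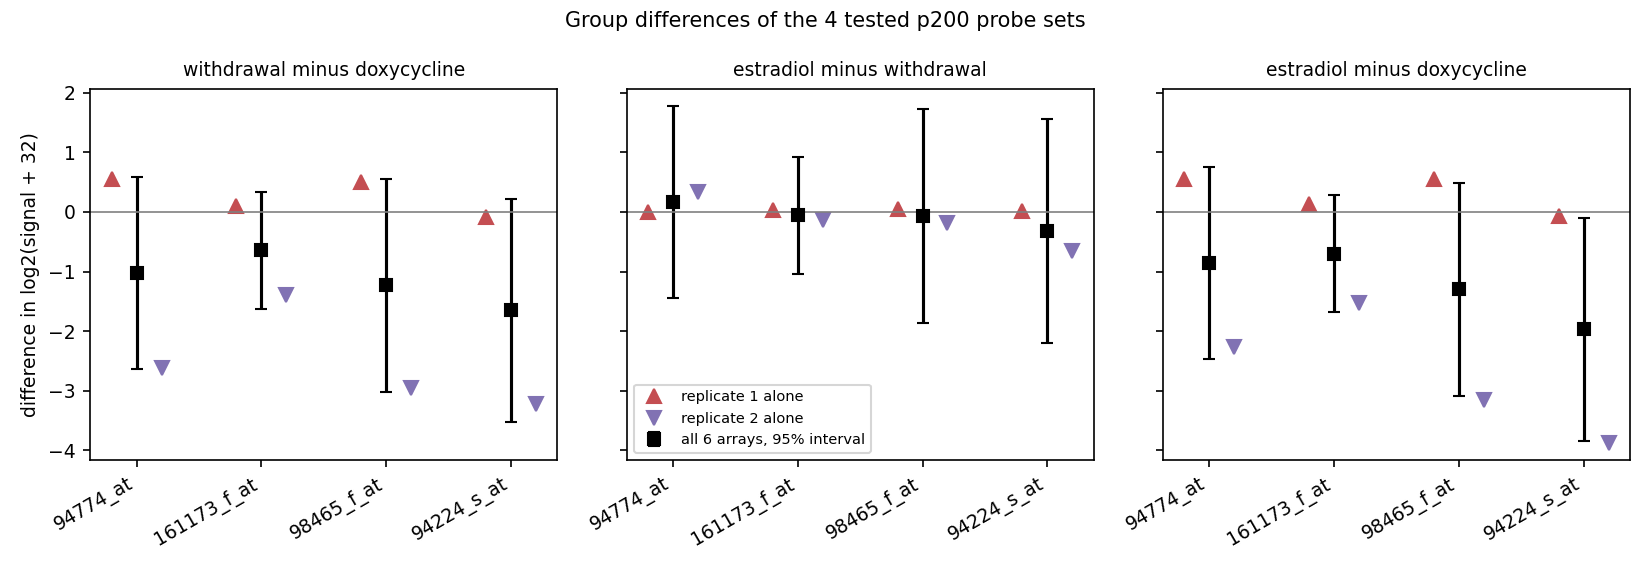
Differences between groups in log2(signal + 32) for the 4 tested probe sets, by comparison: black squares are the difference of means over all 6 arrays with its 95% interval, red triangles replicate 1 alone and purple triangles replicate 2 alone. Where doxycycline is compared, replicate 1 lies between -0.08 and 0.56 and replicate 2 between -3.88 and -1.39; in the comparison of estradiol with withdrawal every interval spans 0.

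With the filter lifted, the 3 dim probe sets gave limma adjusted p-values between 0.889 and 1.00 in the 3 comparisons. None was called.

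Among the other family members, the list held 15 relatives, of which 2 had a probe set of their own. Ifi207, next to Ifi204 in the block, was read by 92251_f_at at 39.8 and 193 with doxycycline, 31.2 and 27.2 on the withdrawal arrays, and 19.4 and 33.7 with estradiol. The suffix of 92251_f_at also marks probes shared by a sequence family. Ifi207 by this probe set had the pattern of the members, with the array labelled doxycycline replicate 2 at 1.65 above the highest of the others on the log2 scale. Its group differences were -1.06 (SE 0.48) after withdrawal and -1.13 (SE 0.48) with estradiol against doxycycline, limma adjusted p = 0.925 and 0.348. Without the high array they were -0.23 and -0.31. Ifi209 was dim, at 17.3 and 5.5 with doxycycline and 1.2 to 2.4 on the other 4 arrays, and was not highest on the array labelled doxycycline replicate 2.

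The 3 tested genes beside the block on the chromosome did not share the pattern. Of the 5 nearest genes with a probe set on one side (Ackr1, Fcer1a, Olfr16, Apcs and Crp) all were below the filter, and on the other side Mptx1 and Rgs7 were too. The tested neighbours were Fh1, a fumarase, Exo1, an exonuclease of DNA repair, and Adss, of adenine nucleotide synthesis. On the array labelled doxycycline replicate 2 they stood at -0.92, -1.32 and -0.36 against the highest of the other 5.

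Of the upstream factors, Irf1 gave 219 and 320 in the doxycycline group and 155 to 225 on the other 4 arrays. Whether its mouse probe set also reads the IRF-1 fusion is unknown. Its highest value, on the array labelled doxycycline replicate 2, was 0.45 above the next on the log2 scale. Irf7, the interferon-induced factor that amplifies the type I response, gave 13.1 and 384, 11.3 and 27.7, and 10.7 and 13.9. That array exceeded the rest by 2.80. Irf9, the DNA-binding subunit of the ISGF3 complex, gave 103 and 342, 35.1 and 115, and 40.4 and 27.9, an excess of 1.35. Socs1, a feedback inhibitor of JAK kinases, gave 422 and 1081 with doxycycline and 337 to 464 elsewhere, an excess of 1.17.

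Irf7, Irf9 and Socs1 were the 3 of 15 tested interferon signalling genes (21 listed, 17 with a probe set) that exceeded the other arrays at least 2-fold there. Irf7 passed the filter on dim signals only through that array, which leaves 2 of 14 without it. The receptor subunit Ifnar1 did not stand out on that array, with 118 and 118 with doxycycline, 45.2 and 96.9 on the withdrawal arrays, and 35.8 and 15 with estradiol. The kinase Ikbke, which phosphorylates IRF factors, gave 91.2 and 107, 9.9 and 50.1, and 13.5 and 19.9. Both had lower means with estradiol than with doxycycline, with differences of -1.41 (SE 0.32) and -1.43 (SE 0.34), and did not pass (limma adjusted p = 0.255 for each). Irf5, an IRF factor of inflammatory signalling, gave 60.4 and 90.7, 31 and 24.7, and 36.3 and 69.7, a difference of -0.83 after withdrawal (SE 0.29, limma adjusted p = 0.925). Ifnb1, the interferon-beta gene, was below the filter, at 12.7 on the array labelled doxycycline replicate 2 and 8.5 to 40.1 on the others. None of the 15 was called in any comparison, with 5 higher and 10 lower after withdrawal against doxycycline, 4 and 11 for estradiol against withdrawal, and 3 and 12 for estradiol against doxycycline.

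Partners that p202 and p204 are reported to bind numbered 21 on the list, 17 with a probe set and 15 tested. None was called, and 0 of 15 exceeded the highest of the other 5 arrays by at least 1 on the log2 scale on the array labelled doxycycline replicate 2. The largest excess there was that of Jun, an AP-1 subunit, with 174 against 77.6 to 96.9. Their medians were -0.02, -0.02 and -0.14 in the 3 comparisons. Ubtf, which encodes UBF, gave 415 and 306 with doxycycline, 630 and 474 on the withdrawal arrays, and 611 and 806 with estradiol, a difference of 0.92 between estradiol and doxycycline (SE 0.31, limma adjusted p = 0.286). Both doxycycline arrays were the lowest, so those groups did not overlap. Max, the partner of Myc, differed by 0.74 there (SE 0.34, limma adjusted p = 0.372).

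Myog, the muscle factor myogenin, gave 108 and 71.6 with doxycycline against 33.8 and 47.1 after withdrawal, and Myod1 gave 85.4 and 88.2 against 53.6 and 54.3. The differences were -0.74 (SE 0.32) and -0.47 (SE 0.23), and neither passed. Rb1, the retinoblastoma gene, was highest on the array labelled doxycycline replicate 2, with 59.1 against 21.6 to 41.3. The Id genes, inhibitors of MyoD and p204 partners, were lower on that array than on doxycycline replicate 1. Of them only Id1 was lowest there, at 138 against 191 to 415 on the others. Id2 gave 256 and 144 with doxycycline, 26.2 and 484 on the withdrawal arrays, and 42.4 and 119 with estradiol. Id3 gave 726 and 357, 173 and 901, and 149 and 350.

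Other interferon-stimulated genes were high on the same array as the p200 probe sets. Of 53 listed, 39 had a probe set and 34 were tested. On the array labelled doxycycline replicate 2, 26 of the 34 exceeded the highest of the other 5 at least 2-fold, and 0 of 34 did on any other array. Of the 34, 6 (Ifi47, Iigp1, Irgm1, Mx1, Mx2 and Rsad2) passed the filter on dim signals only through that array and so had to be high there. Among the other 28 the count was 20. The medians of all 34, those 6 included, were taken against the mean of the other 5 arrays on the log2 scale. They were -0.57 to -0.24 on the other arrays and 2.31 on the array labelled doxycycline replicate 2. Isg15, a ubiquitin-like modifier, gave 4709 there and 79 to 299 on the rest. Ifit1, a sensor of viral RNA caps, gave 2362 against 41.9 to 125.

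H2-K1, an MHC class I heavy chain, gave 2858 against 467 to 698, and H2-D1, another, 6860 against 1242 to 1953. The suffix of both probe sets marks probes shared by a sequence family, so each may read other class I genes. B2m, the light chain of MHC class I, gave 5474 against 1406 to 2363. Ifi30, a lysosomal reductase on the same list, was lowest on that array, at 78 against 118 to 330. So was Ifi27, at 151 against 294 to 617. As group differences, 32 of the 34 were lower after withdrawal than with doxycycline (median -1.0) and 31 were lower with estradiol than with doxycycline (median -0.93), and limma called 0. The 34 include the 6 that passed the filter only through the array labelled doxycycline replicate 2. Without the array labelled doxycycline replicate 2 these medians were 0.20 and 0.10. Between estradiol and withdrawal the median was -0.07.

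Growth genes, a list that also held the cell-cycle inhibitors Cdkn1a and Cdkn1b, had a low median on that array. The median of the 22 tested (25 listed, 23 with a probe set) was -1.37 there against the mean of the other 5 arrays, -0.41 on doxycycline replicate 1, 0.66 and -0.63 on the withdrawal arrays, and 0.75 and 1.02 on the estradiol arrays. Mki67, a proliferation marker, gave 65 and 31.3 with doxycycline, 244 and 130 on the withdrawal arrays, and 277 and 355 with estradiol. Pcna, the DNA sliding clamp, gave 251 and 170, 632 and 331, and 698 and 1021. Tk1, a thymidine kinase, gave 123 on the array labelled doxycycline replicate 2, 1022 and 225 on the withdrawal arrays, and 1078 and 947 with estradiol. The array labelled doxycycline replicate 2 was the lowest for Mki67, Pcna and Tk1. Aurka, a mitotic kinase, gave 85.3 and 47.6, 225 and 98.7, and 238 and 326. In the group comparisons 20, 22 and 20 of the 22 had the higher mean in the group named first, with medians of 0.86, 0.68 and 1.54, and 0 passed. The 2 that were lower in both comparisons with doxycycline were the inhibitors Cdkn1a and Cdkn1b. Cdkn1a gave 1466 on the array labelled doxycycline replicate 2 and 419 to 1603 on the others. After withdrawal against doxycycline the median was 0.21 without withdrawal replicate 1 and 0.41 without doxycycline replicate 2. For estradiol against withdrawal it was 1.25 without withdrawal replicate 1 and 0.15 without withdrawal replicate 2. Whether low growth genes and high p200 probe sets on that array are linked was not tested.

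**Figure D5:**
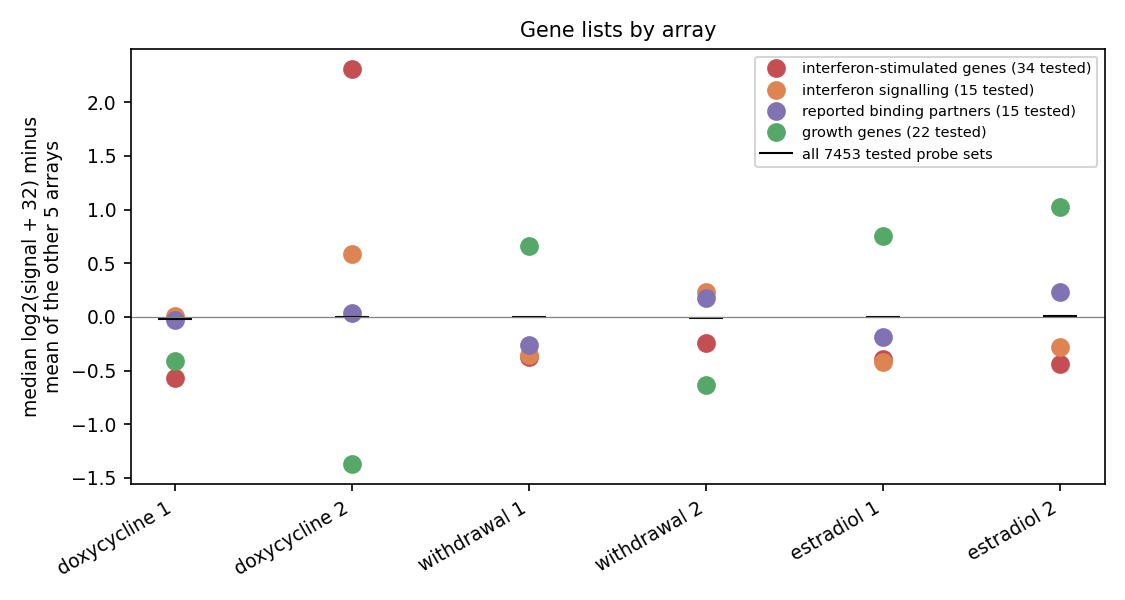
Median over the tested genes of each list, in log2(signal + 32), of each array minus the mean of the other 5 arrays; points are the 4 lists and black dashes all 7453 tested probe sets. On the array labelled doxycycline replicate 2 the interferon-stimulated genes stand at 2.31 and the growth genes at -1.37, while the reported binding partners lie at 0.04. Of the 34 interferon-stimulated genes, 6 passed the filter on dim signals only through that array.

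Markers of the cell line and of other cells were set beside this pattern. Fibroblast markers were bright, with 8 of 10 tested and a summed signal of 24907 on the array labelled doxycycline replicate 2 against 15021 to 26217 on the others, although Vim and Lum were below the filter. Of 7 myeloid markers 3 were tested, with summed signals of 577 against 528 to 570, and Ptprc, the leukocyte marker CD45, was at 1.7 to 7.4 on all 6 arrays. Lymphocyte and endothelial markers had 0 of 4 and 0 of 4 tested, with sums of 49.4 against 39.7 to 62.2 and of 76.6 against 39.9 to 84.7. Epithelial markers, with 2 of 4 tested, summed to 220 against 141 to 206, and muscle markers, with 1 of 3 tested, to 102 against 79.7 to 141. In bulk RNA, more cells with a transcript and more transcript per cell cannot be told apart.

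The genes whose profile over the 6 arrays was most like that of Ifi202b by 94774_at were Rsad2 (Pearson r 0.994), Gbp3 (0.994), Gm9706 (0.992), Ifi35 (0.991) and Tcirg1 (0.989). For Ifi204 by 98465_f_at they were Nudcd3 (0.997), Inpp1 (0.995), Gm20362 (0.994), Rasgrp2 (0.993) and Isg15 (0.993). Ifi202b and Ifi204 themselves had r = 0.972 over 6 arrays, and 0.714 over the 5 arrays without the high one. For each of the 2 genes, 0 of the 5 most alike genes remained among the 5 most alike over those 5 arrays. Rsad2, the antiviral protein viperin, gave 662 on the array labelled doxycycline replicate 2 and 4.2 to 39.7 on the rest. These correlations describe 1 array against the rest and carry no test.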

How the data were processed

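Total RNA of 6 samples (3 groups of 2) was read on 1-colour Affymetrix arrays, 1 per sample. The authors' deposited values are MAS5 signal intensities, per the submitters' processing notes. Its version is not given in the sources used here. Trimmed means, leaving out 2% at each end, were 150.087 to 150.101 on the arrays, so the deposited intensities had already been scaled. Depth has no meaning here, and the number of arrays limits the precision.

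Each array was rescaled to the common trimmed mean (factors 0.999968 to 1.00006) and turned into log2(signal + 32), which understates changes of dim probe sets. The 66 controls and the lowest 40% of probe sets (signal below about 29.0) were left out. The other 7453 entered limma 3.58.1 (R 4.3.3), with 1 mean per group, an intensity trend, 3 residual and 5.23 prior degrees of freedom, two-sided p-values and Benjamini-Hochberg adjustment over all 7453. The script was tested on simulated data. The model without a replicate block was the main one. By the labels, each replicate number had its own extraction method, which pairs the arrays. Deviations from the group means correlated at -0.00727 (doxycycline and withdrawal), -0.0284 (doxycycline and estradiol) and 0.449 (withdrawal and estradiol).

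Gene names came from the platform annotation, where 10833 probe sets had 1 symbol, 396 several and 1193 none. A probe set with several symbols is given by its identifier. Lists used the brightest probe set of a gene. Named were all member probe sets, relatives with a probe set, Irf1, Irf7 and Irf9 as regulators, up to 4 genes of each list with the smallest unadjusted p, and the 5 genes most like each member. Others, such as Isg15, Ifit1, Ifi27, Jun, the Id genes, Rb1, Socs1 and Ifnb1, were named after their values were seen. The members and lists were chosen with earlier results of these data known. Promoter windows came from RefSeq. Protein sequences were not used here.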

Additional observations from a re-analysis of the deposited data

How the results depend on the processing

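The p200 differences were recomputed under 14 alternative settings, 144 values in all, of which 131 kept their direction and their side of the threshold, 11 turned sign and 2 passed where they had not. All 11 reversals came from leaving out an array. Over those leave-one-out fits, withdrawal minus doxycycline ranged from -2.31 to 0.26 for 94774_at, -1.37 to 0.08 for 161173_f_at and -2.60 to 0.14 for 98465_f_at. Estradiol minus doxycycline ranged from -2.14 to 0.43, -1.42 to 0.03 and -2.67 to 0.07. Estradiol minus withdrawal ranged from -0.13 to 0.46, -0.15 to 0.05 and -0.56 to 0.42, and from -0.70 to 0.06 for 94224_s_at. The count of p200 probe sets called ranged from 0 to 1 against doxycycline in both comparisons. The count over all probe sets ranged from 0 to 26 after withdrawal, 0 to 28 for estradiol against doxycycline (1 and 28 without doxycycline replicate 1), and 0 to 17 for estradiol against withdrawal, with 17 when withdrawal replicate 1 was left out. Fitting only the 2 groups compared called 132 probe sets between estradiol and doxycycline, and the cause was not tested.

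With the replicate number as a block, limma called 0 of the p200 probe sets and 0 of all in each comparison. The replicate block gave 94224_s_at an adjusted p of 0.8 after withdrawal and 0.285 for estradiol, both against doxycycline. Medians of the 4 lists were recomputed 144 times, and 129 moved by less than the spread between replicates. These 129 include the medians of the interferon-stimulated genes without the array labelled doxycycline replicate 2, which turned sign. Those medians were 0.20 after withdrawal and 0.10 with estradiol, both against doxycycline. In comparisons with doxycycline the spread includes that array, so the count cannot show that these medians are stable. The correlation of Ifi202b with Ifi204 without doxycycline replicate 2, and the counts limited to probe sets that pass the filter without that array, were added after seeing the data. With 2 arrays a group and 1 array apart from the rest, a 2-fold change of these genes could not be told from the spread.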

Other observations

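The letters GAAATCGAAA, the spelling of the IRF core in 7 of the 14 p200 promoter windows, were in 16 of 32851 RefSeq windows of the mouse genome (0.0487%), and the p200 windows were 7 of these 16. They belonged to Ifi206, Ifi214, Ifi213, Ifi208, Ifi207, Mndal and Ifi203. The other 9 included Ddx58, which encodes the viral RNA sensor RIG-I, Parp11, and Serpinb6a and Ripk1, which lie head to head. In Ifi211 and Ifi205 the core was spelled GAAATTGAAA. Among 49 windows of the 42 interferon-stimulated genes with a window, 20 (40.8%) held an IRF core and 0 held GAAATCGAAA, while 14 (28.6%) held a GAS element. The spelling was singled out after the windows had been read, and duplicated genes share sequence by descent, so these counts are a description.

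Ifi202b by 94774_at ranked 36 of 7453 probe sets by its excess on the array labelled doxycycline replicate 2. In the reference genome, 9 of the 12 family genes with a window held an IRF core, and Ifi202b, Aim2 and Ifi209 did not. Whether these motifs are linked to the excess was not tested. The probe sets ahead of all others by that excess were Ccl5, a T cell attractant (5.20), H2-Aa, an MHC class II chain (5.09), Cd74, the class II invariant chain (4.56), and Ifit3 (4.48).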
